A study of Mus musculus with 18 samples.

Results

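Otopetrins are membrane proteins that let protons cross the cell membrane, and the mouse genome carries 3 of them, *Otop1*, *Otop2* and *Otop3*. The 3 genes were chosen by name, because *Otop2* stood out on the Western-type diet in these same arrays, so what the diet did to their signals is described here without a test. On the array 5 of 56605 probes, under 37074 gene names, carried one of these 3 names. All 5 probes are followed below through 18 arrays, 1 mouse each. Of these, 2 probes for 2 genes passed the filter on dim probes, which asked that the scanner software call a probe well above background on 5 or more arrays of a group of 6, in whichever group, and left 32726 probes.

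The RNA came from cells of the ileum, released from the tissue by chelation, of mice on the C57BL6/J background. There were 6 mice in each of 3 groups. The iPGC1afl/fl CHOW and iPGC1afl/fl HFD groups carried both floxed alleles of *Ppargc1a*, the gene of the coactivator Pgc1α, and no Cre, and were fed chow or the high-fat diet (HFD). The iPGC1a-/- HFD group carried the same floxed alleles with a Vil1-Cre transgene, which is active in the intestinal epithelium, and was fed the HFD. No iPGC1a-/- mice on chow were among the samples, so the genotypes can be compared on the HFD only. The HFD gave 42% of its energy as fat with 0.2% cholesterol, for 8 weeks from 8 weeks of age, and the mice were killed at Zeitgeber time 3.

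The channels open to protons along their gradient and are closed to other common ions. *Otop1* is best known as the sour receptor channel of taste cells and is also needed for the otoconia of the inner ear. *Otop2* and *Otop3* are known from the gut, and in the human colon *OTOP2* marks a small population of absorptive epithelial cells that also carry the bestrophin *BEST4*.

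The probes are 60 bases long, and the last 30 bases of each are printed, since these letters are what the signals below report. The coordinates (mm9) come with the array files. Their place in exon, coding or untranslated sequence was not determined. Capitals mark the AATAAA hexamer, the usual signal for cutting and polyadenylating a transcript.
Otop2, A_55_P2118794, chr11:115193550-115193609: gtactctctggagatgagaccAATAAAcct
Otop3, A_55_P1961938, chr11:115208182-115208240: ggcttccataaaccctgtttgtttgatcga
Otop3, A_55_P2744399, chr11:115207627-115207686: ctacaggacctggttcaccattgttaactt
Otop1, A_55_P2078138, chr5:38694026-38694085: aacctggccatgcccttttccattttctac
Otop1, A_55_P2805868, chr5:38695335-38695394: tcaggtttccagggacaccagcactcacat
The hexamer stood in the *Otop2* probe and in none of the other 4. The *Otop2* and *Otop3* probes lay 14 and 14.6 kb apart on one chromosome, and those of *Otop1* on another.

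On chow, *Otop2* was dim, and on the HFD it was bright on every array. The median spot signal of A_55_P2118794 ran from 69 through a median of 77 to 101.5 on the 6 iPGC1afl/fl CHOW arrays, over a local background of 19 to 22. On the 6 iPGC1afl/fl HFD arrays it ran from 683 through 915.75 to 2221. On the 6 iPGC1a-/- HFD arrays it ran from 1155 through 1739 to 2197. The probe was well above background on all 18 arrays and saturated on none, so the chow signal was low but measured. No HFD array of either genotype came near the brightest chow array. The iPGC1a-/- HFD arrays lay above all chow arrays after normalization too, as for 7.2% of all tested probes.

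After normalization the *Otop2* signal was 6.22 ± 0.17 on the log2 scale on iPGC1afl/fl CHOW (SD, n = 6) and 10.13 ± 0.43 on iPGC1afl/fl HFD (SD, n = 6). The difference was 3.91, a fold of 15.0, and only 1 of 32726 probes had a larger rise between these groups. Every iPGC1afl/fl HFD array was above every chow array, as for 4.76% of all tested probes. Within slides, which held 2 arrays of each group, the difference was 4.09, 3.51 and 4.12. The fold depends on how background is handled: the mean background-subtracted signal was 19.7-fold higher on the HFD and the mean raw signal 14.4-fold. In these bulk samples more cells that carry a transcript and more transcript per cell cannot be told apart.

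**Figure D1:**
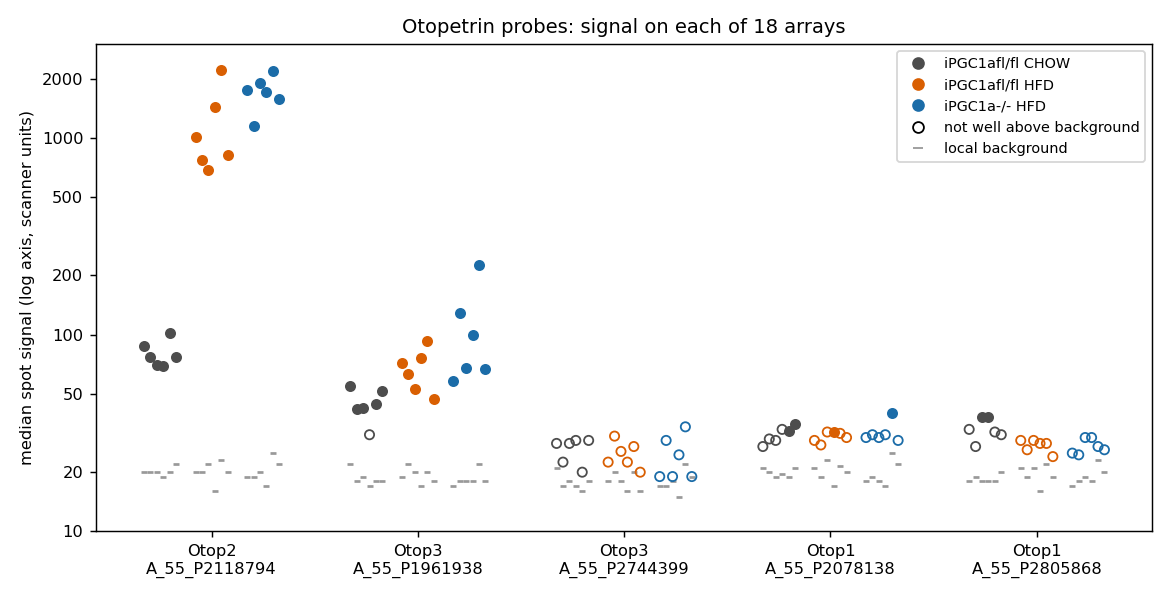
Median spot signal (log axis, scanner units) of the 5 otopetrin probes on each of the 18 arrays, with filled points well above background, open points not, and grey dashes for the local background. Otop2 moves from 69 to 101.5 on CHOW to 683 or more on HFD, Otop3 A_55_P1961938 moves less, and the other 3 probes stay near background.

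*Otop3*, the neighbour of *Otop2*, was higher on the HFD too, but by much less and close to the limit of the array. The median spot signal of A_55_P1961938 ran from 31 through 43.5 to 55 on iPGC1afl/fl CHOW, where 5 of 6 arrays were well above background. It ran from 47 through 67.5 to 92.5 on iPGC1afl/fl HFD, with all 6 arrays well above background. The raw ranges overlapped, and the normalized ones did not: 4.93 to 5.67 on chow against 5.88 to 6.39 on the HFD, on the log2 scale. The same separation was seen for 4.76% of all tested probes. The means were 5.39 ± 0.26 and 6.09 ± 0.17 (SD, n = 6 each), a difference of 0.71 or 1.63-fold. Within slides it was 0.70, 0.55 and 0.86. With the background subtracted, the ratio of the mean signals was 2.01.

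The iPGC1a-/- HFD arrays held the highest *Otop3* signals, from 58 through 83.5 to 226.5. Replicate 5 at 226.5 and replicate 2 at 129 stood above the remaining 4, which lay between 58 and 99. Both came from slide 1. The normalized mean was 6.60 ± 0.55 (SD, n = 6), the widest spread of the 3 groups. Against iPGC1afl/fl CHOW, which serves as the reference for both HFD groups, the difference was 1.21 for *Otop3* and 4.51 for *Otop2*.

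The other probe for *Otop3*, A_55_P2744399, was not well above background on any array. Its signal ran from 20 to 29 on iPGC1afl/fl CHOW, from 20 to 30.5 on iPGC1afl/fl HFD and from 19 to 34 on iPGC1a-/- HFD, over a local background of 15 to 22. The rise of *Otop3* therefore rests on A_55_P1961938 alone, and the 2 probes of the gene disagree on whether it was detected.

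*Otop1*, the taste cell channel, gave no signal that could be followed. A_55_P2078138 was well above background on 4 of 18 arrays and A_55_P2805868 on 2 of 18. The first ran from 27 to 35 on iPGC1afl/fl CHOW, from 27.5 to 32 on iPGC1afl/fl HFD and from 29 to 40 on iPGC1a-/- HFD. The second ran from 27 to 38, from 24 to 29 and from 24.5 to 30 in the same order. Both arrays that detected A_55_P2805868 were chow arrays. With no filter on dim probes, the genotype difference was 0.05 and -0.01 on the log2 scale for these probes, with adjusted p = 0.909 and 0.981 (limma, Benjamini-Hochberg).

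The second comparison asked whether loss of Pgc1α in the gut changes the otopetrins on the HFD. It uses the same iPGC1afl/fl HFD arrays as the comparison of diets. *Otop2* averaged 10.73 ± 0.30 (SD, n = 6) on the log2 scale in the arrays labelled iPGC1a-/- and 10.13 ± 0.43 in iPGC1afl/fl, 1.52-fold higher. The ranges overlapped, from 10.37 to 11.16 against 9.78 to 10.91. The log2 difference of 0.60 had a standard error of 0.17 and a 95% interval of 0.25 to 0.95. It did not pass over all probes (limma, adjusted p = 0.232), while the exact two-sided permutation test of this probe alone gave p = 0.0216, where the smallest p it allows is 0.00216. One array decides the call: without iPGC1afl/fl HFD replicate 5, the highest of its group at 10.91, the difference was 0.77 with limma adjusted p = 0.0156, where leaving out the other arrays in turn gave up to 0.481.

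*Otop3* averaged 1.42-fold higher in the arrays labelled iPGC1a-/-, a log2 difference of 0.51 with a standard error of 0.19 and a 95% interval of 0.11 to 0.90. It did not pass over all probes either (limma, adjusted p = 0.424), and the exact permutation test of this probe alone gave p = 0.0433. Without replicate 5 of iPGC1a-/- HFD the difference was 0.33. Of all 21542 tested genes, 0.162% passed in this comparison, 0.0882% higher and 0.0743% lower, and neither otopetrin was among them.

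The excess in the iPGC1a-/- arrays did not fall on the same slides for both genes. For *Otop2* it was 0.08 on slide 1, 0.87 on slide 2 and 0.85 on slide 3. For *Otop3* it was 1.0 on slide 1, 0.35 on slide 2 and 0.17 on slide 3. The 2 iPGC1a-/- arrays of slide 1 had the highest *Otop3*, 7.19 and 7.36. Of the same pair, one had the lowest *Otop2* of its group, 10.37, and the other 10.55. With slide as a block neither difference passed, at adjusted p = 0.257 for *Otop2* and 0.230 for *Otop3* (limma).

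The check of the label itself was not clear. *Ppargc1a*, the gene deleted in part, had 2 tested probes. The brighter averaged 10.94 on iPGC1afl/fl CHOW, 11.37 on iPGC1afl/fl HFD and 11.67 on the arrays labelled iPGC1a-/-, so it was not lower there (log2 difference 0.30, limma adjusted p = 0.568). The second probe went the same way, 9.15 against 9.51. Whether either probe lies in the deleted exons was not determined. Apart from the arrays, the paper reports that RT-qPCR of *Pgc1α* bore out the deletion along the intestine.

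**Figure D2:**
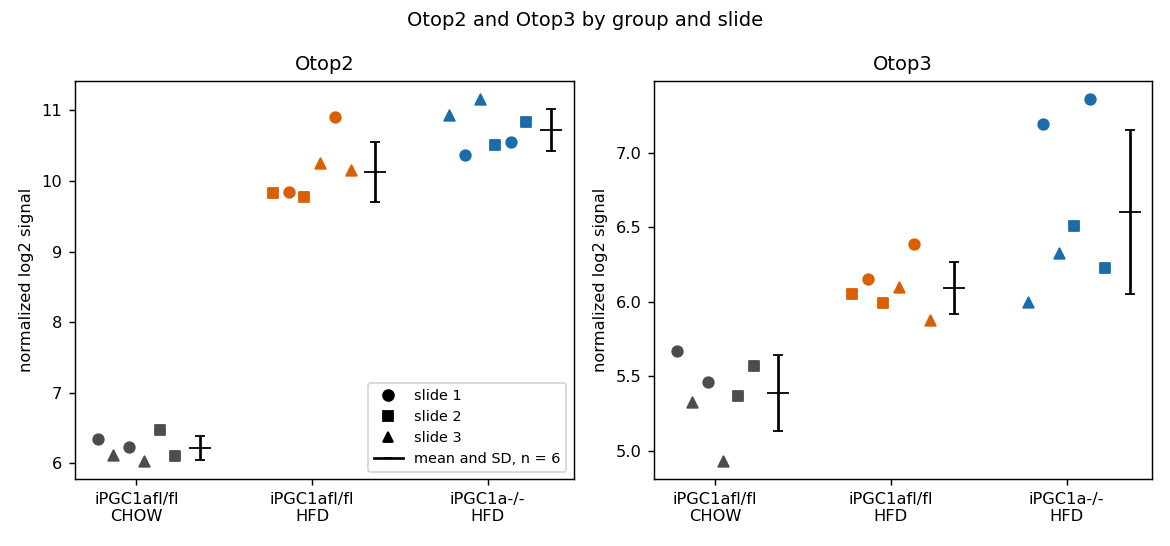
Normalized log2 signal of Otop2 and Otop3 on each array, with marker shape for the slide and black bars for mean and SD (n = 6 a group). All HFD arrays lie above all CHOW arrays for both genes, as for 4.76% of all tested probes in iPGC1afl/fl HFD and 7.2% in iPGC1a-/- HFD. In iPGC1a-/- HFD, the 2 slide 1 arrays are the highest for Otop3 and not for Otop2.

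No relation between *Otop2* and *Otop3* among the 6 arrays of a group passed a test. Pearson's r was 0.47 on iPGC1afl/fl CHOW (Spearman's rho 0.43), 0.70 on iPGC1afl/fl HFD (rho 0.54) and -0.74 on iPGC1a-/- HFD (rho -0.66). The exact permutation p values were 0.353, 0.140 and 0.114 for r and 0.419, 0.297 and 0.175 for rho. Adjusted over the 3 groups, those for r were 0.353, 0.210 and 0.210. Without the 2 arrays farthest from the median of *Otop2*, r was 0.68, -0.71 and -0.77 in the same order, so the value on iPGC1afl/fl HFD rests on those arrays.

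Genes beside *Otop2* and *Otop3* on the chromosome moved little. Of 11 named genes with a probe within 100 kb, 9 had a tested probe and 2 passed for diet, *Ush1g* and *Tmem104*, while 0 passed for genotype. In this fit a gene is called where the adjusted p is at most 0.05 and the fold above 1.5, which 9.09% of all tested genes did for diet. *Ush1g*, a scaffold protein of hair cells with a probe 17.0 kb from that of *Otop2*, averaged 6.33 ± 0.19 on iPGC1afl/fl CHOW and 6.92 ± 0.14 on iPGC1afl/fl HFD (log2, SD, n = 6; difference 0.59, limma adjusted p = 0.00174). *Tmem104* passed on 1 of its 2 tested probes, which rose by 0.59, against 0.09 on the other. *Hid1*, whose probe lies 0.784 kb from the *Otop3* probe, differed by 0.23 (adjusted p = 0.0529). *Fdxr* differed by 0.35 (limma adjusted p = 0.00491), under the fold threshold. Next to *Otop1*, 2 of 6 named genes were tested, and *Lyar*, a nucleolar protein, fell by 0.66 (adjusted p = 9.32e-05).

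**Figure D3:**
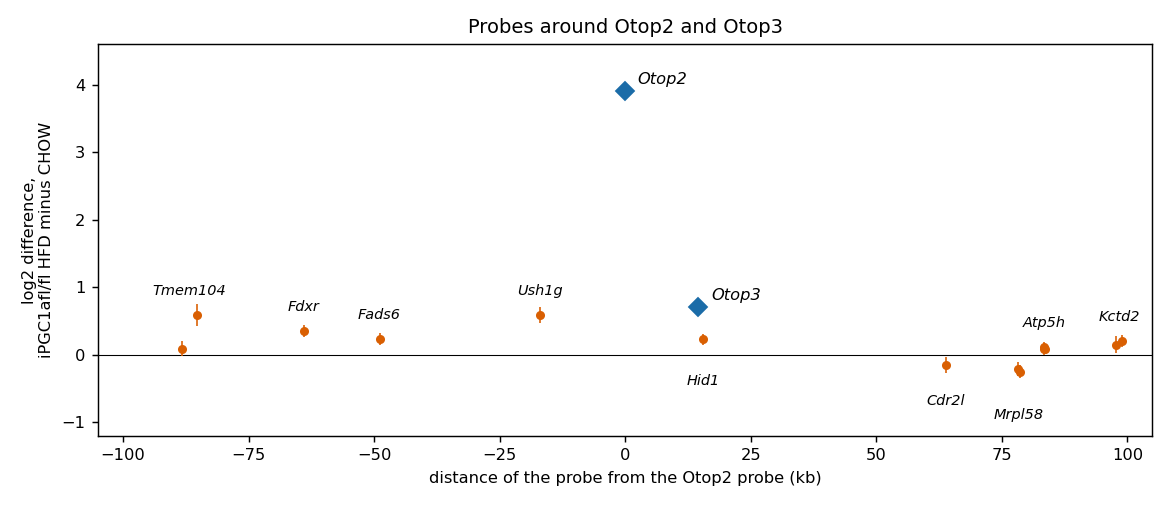
Log2 difference between iPGC1afl/fl HFD and CHOW (points, with standard errors) for every tested probe of a named gene within 100 kb, against its distance in kb from the Otop2 probe. Diamonds mark Otop2 and Otop3. Otop2 stands at 3.91 and Otop3 at 0.71, while no named neighbour is above 0.59.

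RefSeq lists 2 transcription starts for *Otop2*, 15367 bases apart, and 2 for *Otop3* that differ by a few bases. The 250 bases before each *Otop2* start and before the upstream *Otop3* start are printed to set them side by side (GRCm38.p6, forward strand). Capitals mark CG dinucleotides.
Otop2, chr11:115306913-115307162: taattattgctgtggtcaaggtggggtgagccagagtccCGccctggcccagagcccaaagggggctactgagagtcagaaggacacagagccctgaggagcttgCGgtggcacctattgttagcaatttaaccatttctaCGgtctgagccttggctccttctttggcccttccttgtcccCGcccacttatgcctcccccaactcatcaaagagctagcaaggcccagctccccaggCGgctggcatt
Otop2, chr11:115322280-115322529: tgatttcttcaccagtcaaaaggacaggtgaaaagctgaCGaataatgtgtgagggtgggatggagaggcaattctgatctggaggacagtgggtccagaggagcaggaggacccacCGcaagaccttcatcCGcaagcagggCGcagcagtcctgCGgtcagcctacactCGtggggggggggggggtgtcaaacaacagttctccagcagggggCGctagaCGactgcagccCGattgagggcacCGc
Otop3, chr11:115334481-115334730: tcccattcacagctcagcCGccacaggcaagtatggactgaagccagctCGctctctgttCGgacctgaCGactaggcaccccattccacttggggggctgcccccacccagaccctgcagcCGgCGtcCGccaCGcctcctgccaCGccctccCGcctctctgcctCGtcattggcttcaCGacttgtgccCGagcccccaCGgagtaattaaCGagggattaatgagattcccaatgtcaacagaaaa
They held 5, 10 and 15 CG dinucleotides, at a GC content of 57.2%, 59.2% and 60.8%, where the median over 32851 promoter entries was 52.4%. The arrays do not tell which *Otop2* start was used. The 3 stretches were searched on both strands for letters that gut and metabolic factors bind. The TATA box (TATAAA) stood in 12.4% of all entries, the GATA motif (AGATAA) in 9.99% and the letters of the gut factor Cdx2 (TTTATG) in 10.8%. The E-box (CACGTG) stood in 6.02%, the D-box (TTATGTAA) in 0.819% and the letters of Hnf4a (CAAAGTCCA) in 0.384%. None of the 3 stretches held any of these 6, of which those of Cdx2 and the D-box can overlap.

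The otopetrins work among many proteins that move protons and bicarbonate across the gut epithelium, so 6 lists of such genes were followed in the same fit. Of 75 genes, 58 were tested, and 12 passed for diet, 7 higher and 5 lower on the HFD. Over all 21542 tested genes 3.51% passed as higher and 5.59% as lower. The median difference of the 58 genes was 0.08, against 0.00 over all tested genes. For genotype 0 of the 58 passed in limma, with a median of 0.03, and only without iPGC1a-/- HFD replicate 1 did 1 pass, *Slc46a1*.

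Among the sodium-proton exchangers, which carry protons out of the cell in return for sodium, 4 of 5 were tested and 1 passed. Over all tested genes 9.09% passed in either direction. *Slc9a3*, the main exchanger of the enterocyte brush border, fell from 11.60 to 10.66 on the log2 scale (difference -0.94 ± 0.22 SE, adjusted p = 0.00335). Only this probe, 1 of the 2 tested for *Slc9a3*, passed. Its scaffold *Slc9a3r1* differed by 0.36, under the fold threshold. *Slc9a2* and *Slc9a8* differed by 0.25 and -0.10, and *Slc9a4* was not tested.

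Of the bicarbonate and chloride transporters 3 of 11 tested genes passed, all higher, where 3.51% of all tested genes passed as higher. *Slc4a5* and *Slc4a7*, cotransporters of sodium and bicarbonate, rose by 0.82 ± 0.17 and 0.65 ± 0.20 (log2, SE), each passing on 1 of 2 tested probes. *Ano1*, a calcium-activated chloride channel, rose by 0.59 with adjusted p = 0.0499, at the edge of the threshold. The brush border exchangers of chloride and bicarbonate *Slc26a3* and *Slc26a6*, named after their values were seen, differed by 0.05 and 0.07, with adjusted p = 0.856 and 0.654. Among the carbonic anhydrases, which make bicarbonate and protons from carbon dioxide, 2 of 12 tested genes passed, both higher, against the same 3.51%. They were *Car13*, a cytosolic enzyme, which rose from 9.64 to 10.56, and *Car5a*, a mitochondrial one, which rose from 4.86 to 5.65. The rise of *Car5a* starts near the limit of the array. Its chow mean lay below 4.93, the normalized *Otop3* value of the chow array where that probe was not well above background.

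Of the 5 proton-coupled nutrient transporters *Slc15a1*, the peptide transporter, rose by 0.61 (adjusted p = 0.0253). *Slc36a1*, for amino acids, differed by -0.37, *Slc16a1*, for monocarboxylates, by -0.12, *Slc46a1*, for folate, by 0.44, and *Slc11a2*, for iron, by 0.28, none of which passed. In all these lists the differences were smaller than the 3.91 of *Otop2*.

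**Figure D4:**
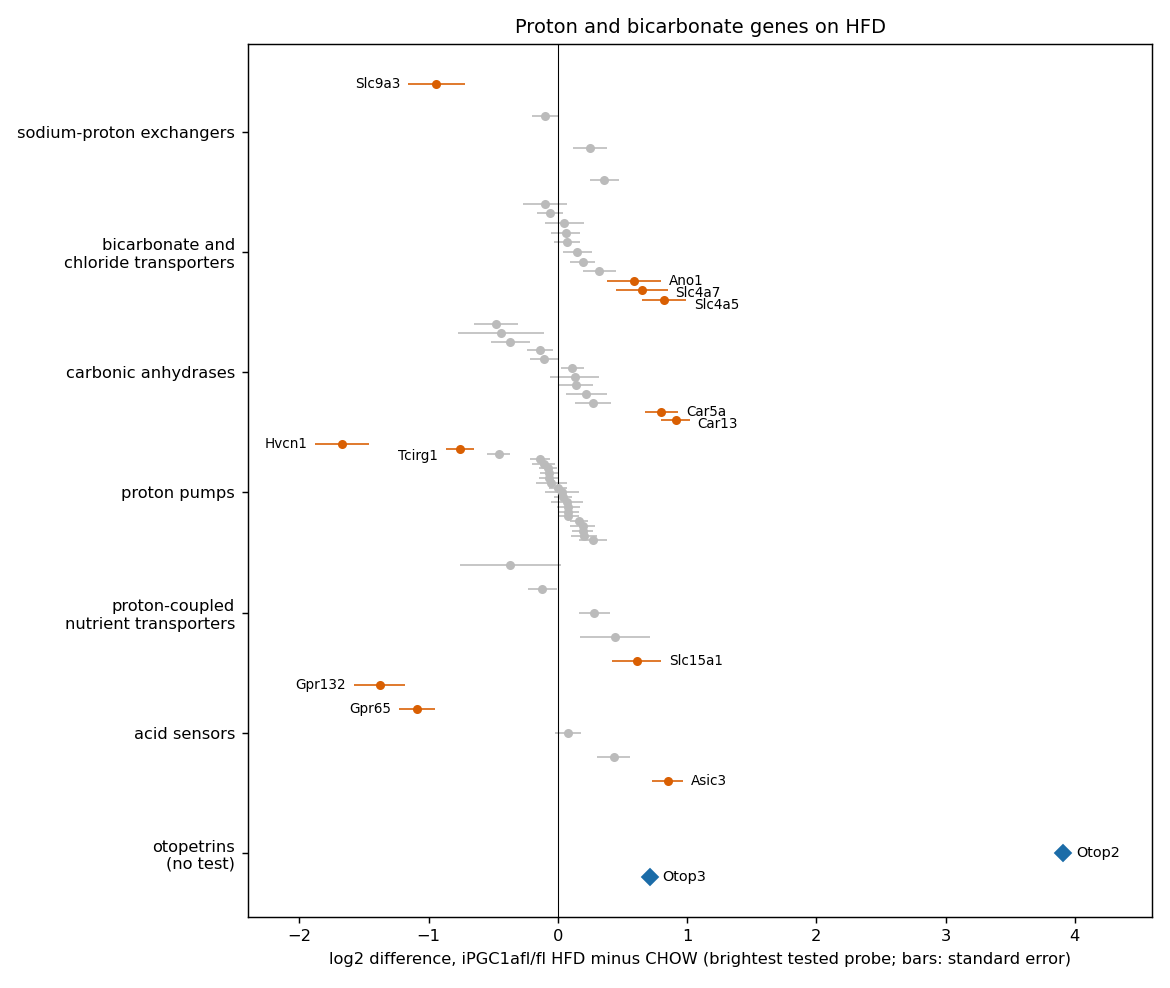
Log2 difference between iPGC1afl/fl HFD and CHOW of the brightest tested probe of each gene in the 6 lists, with standard errors; coloured and named where the gene passed, grey where not. The 12 named genes lie between -1.67 and 0.91, while Otop2, shown without a test, lies at 3.91.

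Several of the genes that fell are best known from leukocytes. In the list of proton pumps 2 of 21 tested genes passed, both lower, where 9.09% of all tested genes passed in either direction. *Hvcn1*, which is a voltage-gated proton channel of leukocytes and not a pump, fell by 1.67, and *Tcirg1*, a subunit of the vacuolar proton pump that also serves T cells, fell by 0.76. Of the acid sensors 3 of 5 tested genes passed. The proton-sensing receptors *Gpr65* and *Gpr132* fell by 1.09 and 1.38. The acid-sensing ion channel *Asic3* rose by 0.85 and passed on 1 of its 2 tested probes. *Asic1* differed by 0.43 (adjusted p = 0.0194), under the fold threshold, and *Pkd1l3* by 0.08, and the other 4 were not tested. Markers of lymphocytes were lower in the same comparison, 7 of 7 tested for T cells, 5 of 6 for B cells and 2 of 4 for plasma cells, where 5.59% of all tested genes passed as lower. The summed linear level of 6 T cell markers was 11300 to 42400 on iPGC1afl/fl CHOW, 4360 to 8140 on iPGC1afl/fl HFD and 5250 to 9830 on iPGC1a-/- HFD. This sum mostly follows *Gzma*, which averaged 14.38 on iPGC1afl/fl CHOW on the log2 scale. The next of the summed markers, *Cd3d*, averaged 9.77 there. The part of lymphocytes in the fall of the genes above, and in the values of the otopetrins, was not tested.

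Human cells that carry *OTOP2* also carry a set of other genes, and 8 mouse genes of that set were followed. None of the 7 tested passed for diet or for genotype, where 9.09% and 0.162% of all tested genes did. *Guca2a* and *Guca2b*, the peptides guanylin and uroguanylin, differed by 0.48 and 0.54 on the HFD, with adjusted p = 0.000211 and 0.00735, both under the fold threshold. *Car7*, the carbonic anhydrase of those cells, differed by 0.14, *Cftr*, the chloride channel, by -0.10, *Gucy2c*, the guanylin receptor, by 0.31, and *Spib*, a transcription factor, by -0.10. *Notch2*, a receptor of cell fate, differed by -0.54 (adjusted p = 0.00118), under the fold threshold as well, and *Meis1* was not tested. At an adjusted p of at most 0.05 alone, 3 of the 7 would count for diet by their brightest probes. The share of all tested genes at that looser threshold was not counted, and the 9.09% does not serve for it.

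The tissue label was checked with markers of the gut regions and cells. Of 5 markers of ileal enterocytes, the bile acid binding protein *Fabp6* and the bile acid transporters *Slc51a*, *Slc51b* and *Slc10a2* averaged 17.14, 16.12, 13.52 and 13.08 on iPGC1afl/fl CHOW, on the log2 scale. *Fgf15*, the hormone the ileum releases in response to bile acids, was dim there at 6.73. Between the iPGC1afl/fl groups *Fgf15* rose by 2.47 on the HFD, *Slc10a2* and *Slc51b* fell by 1.07 and 0.94, and *Fabp6* and *Slc51a* differed by -0.11 and -0.06. Of the markers of the proximal intestine, *Lct*, *Ada*, *Gata4*, *Onecut2* and *Cybrd1* averaged 15.07, 14.95, 10.21, 8.80 and 5.35 on chow, and of these 5 *Lct* rose by 1.04 and *Onecut2* fell by 1.78 on the HFD.

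Of 7 markers of colonocytes, *Hoxb13* and *Hoxd13* did not pass the filter, and 1 of the 5 tested passed for diet, *Sycn*, which rose by 0.85. The summed linear level of these 5 was 494 to 651 on iPGC1afl/fl CHOW, 635 to 815 on iPGC1afl/fl HFD and 679 to 836 on iPGC1a-/- HFD. Of 7 goblet cell markers 6 passed as lower on the HFD, where 5.59% of all tested genes did, and *Tff3* differed by -0.54 (adjusted p = 0.00932), under the fold threshold. Of 9 enterocyte markers 3 passed as higher, *Fabp1*, *Apoa4* and *Alpi*, where 3.51% of all tested genes did. In the lists of Paneth, enteroendocrine, tuft, stem, macrophage and stromal markers at most 1 gene a list passed in each direction. The part of these shifts in the *Otop2* values was not tested.

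The genes whose signal ran most like that of *Otop2* over the 18 arrays were named by Pearson's r, over 15687 genes with a reference symbol. The points share the 3 groups, so r here mostly follows the step between chow and HFD, and it is a description. The first was *Scd1*, the desaturase that makes monounsaturated fatty acids (r = 0.979), which averaged 6.14 on iPGC1afl/fl CHOW, 12.28 on iPGC1afl/fl HFD and 13.45 on iPGC1a-/- HFD. Then came *Wfdc21* (0.978), the retinal dehydrogenase *Aldh1a1* (0.977), the fatty acid receptor *Ppara* (0.971), *Pbld2* (0.968), the lysosomal cation channel *Mcoln1* (0.967), *4930528H21Rik* (0.967), *Plk5* (0.966), the amide hydrolase *Faah* (0.966) and *Cyp2j13* (0.966). *Wfdc21* averaged 5.47, 8.30 and 8.28 in the 3 groups, and *Ppara* 11.38, 13.00 and 13.08. The lowest r belonged to *Mboat1* (-0.968), *Magi2* (-0.967), *Ceacam10* (-0.966), *Tnk2* (-0.956) and *Sqle* (-0.949), the squalene epoxidase of cholesterol synthesis, which averaged 12.63 on chow and 10.08 on iPGC1afl/fl HFD. *Otop3* stood at rank 1018 with r = 0.77.

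With the group means removed, none of the 10 genes most like *Otop2* was among those 10. They were *Mefv* (r = 0.75), *Itpr1* (0.74), *Gm13212* (0.72), *Myo5a* (0.69), *Themis2* (0.69), *Ptpn2* (0.69), *Il7r* (0.68), *Napsa* (0.68), *Abcg1* (0.67) and *C030034I22Rik* (0.66). *Scd1* then had r = -0.12 and *Otop3* -0.14. Over the 18 arrays with the group means kept, only *Itpr1* (r = 0.59) and *Abcg1* (0.40) of these 10 genes ran with *Otop2*. The others had negative r there, from -0.22 for *Ptpn2* to -0.82 for *Il7r*, so they are not genes that rose with *Otop2* on the HFD. These values are a description too: the 10 genes are the highest over 15687 and were not tested.

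Between 56.3% and 62.3% of probes were well above background per array, the median signal was 39 to 61 and the median local background 17 to 23. Feature Extraction marked 46 to 87 spots as outliers on 16 arrays, 153 on iPGC1afl/fl HFD replicate 2 and 126 on iPGC1a-/- HFD replicate 4. Arrays of a group correlated at 0.987 to 0.997, and 2 arrays of each group lay on each of 3 slides. The p values treat the mice as independent, and the labels do not give the litters or cages needed to check this.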

How the data were processed

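RNA of ileum cells was hybridized to one-colour Agilent SurePrint G3 Mouse GE v2 arrays, 18 in all. The deposited scanner files hold one intensity per spot, from Agilent Feature Extraction 10.10.1.1 per the labels. The authors also deposited a log2 table of 33095 probes, filtered, normalized and corrected by them for washing bath and labelling series, which was used as an alternative only. Those batches are not named in the labels and were not modelled. From the scanner files, log2 of the median signal was taken without subtraction of background, control spots and outlier flags were dropped, spots of a probe were averaged, and dim probes were filtered. Values were normalized by an own version of smooth quantile normalization (window 0.05), which lets groups keep distributions of their own. A model of 3 groups was fitted with limma 3.58.1 in R 4.3.3, with Benjamini-Hochberg adjustment over all 32726 probes. A gene was called where any probe had adjusted p of at most 0.05 and a fold above 1.5, and is represented by its brightest probe. The script was tested on simulated data. The number of arrays limits the precision, with a median standard error of 0.104 (log2) for a difference of 6 against 6 arrays.

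The genes, lists, motifs and rules were chosen with earlier results of these data known. Named are every otopetrin probe, *Ppargc1a*, the genes most and least like *Otop2*, and genes of the proton and bicarbonate lists that passed. In such lists and the human cell set under 10 genes, every reported and tested gene is named. Neighbours within 100 kb are named where they passed for diet, with *Hid1* and *Fdxr* beside them. Alternatives changed background, normalization, filter, block, samples and the handling of probes. Some genes of these lists are not reported here and were left out of the counts. Markers of cell types were summarised by list. All markers of ileal enterocytes and of the proximal intestine, and some of the other lists, are named as well.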

Additional observations from a re-analysis of the deposited data

Results flagged for a closer look

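In the iPGC1a-/- HFD group, replicate 5 lay far from the other 5 arrays for the *Otop1* probe A_55_P2078138. Its signal was 40 against 29 to 31, and the gap to the nearest array was 0.793 of the whole range of the group on the log2 scale, above Dixon's 95% limit for 6 values. The local background of that spot was 25, against 17 to 22 on the others. Of 15 groups of 6 values looked at, this was the only one, and chance gives about 1 in 20.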

How the results depend on the processing

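With background-subtracted signals scaled to the 75th percentile the difference between iPGC1afl/fl HFD and CHOW was 4.40 for *Otop2* and 1.22 for *Otop3*, and with normexp (offset 50) and quantile normalization 3.41 and 0.42, against 3.91 and 0.71 as reported. Both treat the background differently. The other alternatives moved these values by less than the spread between replicates, the authors' log2 table to 3.92 and 0.73. Leaving out each array in turn gave 3.73 to 3.99 and 0.61 to 0.77. For genotype, the differences over these 18 runs were 0.52 to 0.77 (adjusted p = 0.0156 to 0.481) for *Otop2* and 0.33 to 0.63 (0.192 to 0.749) for *Otop3*, and 0 to 1 genes of the lists passed. For diet 9 to 12 of them did. *Otop2* passed only without iPGC1afl/fl HFD replicate 5, and *Slc46a1* only without iPGC1a-/- HFD replicate 1; under the other alternatives neither otopetrin passed for genotype. With the filter that asks for all 18 arrays, *Otop3* was not tested.

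The labels do not say that replicate numbers pair the mice. Deviations of same-numbered arrays correlated at -0.13 to 0.28 between the iPGC1afl/fl groups, with 4 of 6 pairs over 0.1, and at -0.19 to 0.33 between the HFD groups, with 3 of 6 over 0.1, so the numbers were not taken as a pairing. With the replicate block the genotype differences kept their size, 0.60 and 0.51, with adjusted p = 0.228 and 0.338, and 12 list genes passed for diet.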
